A study of Homo sapiens with 2 samples.

Results

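Hepatocyte identity rests on a small group of transcription factors, and 8 of them were followed in wildtype and MAEL knockout HCC cells. The genes were HNF4A, HNF4G, FOXA1, FOXA2, FOXA3, CEBPA, ONECUT1 and PROX1, taken by gene symbol from the 58735 genes of the deposited count table, in which each symbol had a single entry. The cells were PLC8024, also called PLC/PRF/5 or Alexander cells, an epithelial line from liver tissue with HCC as the source. The MAEL WT library came from non-treated wildtype cells. The MAEL KO library came from cells of the same line that received MAEL-targeting sgRNA and Cas9 on a plasmid, were sorted for mCherry and were then seeded to grow single clones. Whether the sequenced MAEL KO cells were 1 clone is not given in the sources used here. There was 1 library per condition, so none of the differences below has a replicate check, and effects of the knockout, of clone selection and of library preparation cannot be told apart. The comparison asks whether these regulators differed between the libraries in the same direction as the hepatocyte genes they are known to control.

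HNF4A and HNF4G are nuclear receptors that bind DNA as dimers, and HNF4A is required for the hepatocyte program of lipoprotein, coagulation and metabolic genes. FOXA1, FOXA2 and FOXA3 are forkhead proteins that can bind closed chromatin and open liver enhancers. CEBPA is a basic leucine zipper protein of mature, non-dividing hepatocytes, ONECUT1 (HNF6) is a cut homeodomain protein that acts in hepatocytes, bile ducts and pancreas, and PROX1 is a homeodomain protein of hepatoblasts that can also act as a corepressor of nuclear receptors. These factors bind each other's genes as well as those of plasma proteins and metabolic enzymes.

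The libraries held 19904136 (MAEL WT) and 20833332 (MAEL KO) counts. Counts were scaled to a common library size by TMM factors. Each log2 fold change sets MAEL KO over MAEL WT, with 1 added to both normalized read counts. Genes that reached 10 counts in either library, 17887 in all, are termed measured genes. The 95% CI is an exact Clopper-Pearson interval for counting error only. MAEL itself had 1 count in MAEL WT and 0 in MAEL KO, both under the floor of 3 counts. The MAEL transcript was thus near absent in both libraries and could not check the labels. Of the hepatocyte genes that define the lineage, SERPINA1, FGB, APOB and TF were abundant, from 30817 counts of FGB to 80091 of APOB in MAEL WT. ALB, by contrast, had 59 counts in MAEL WT and TTR had 20. The endothelial markers KDR and VWF had at most 1 count, and the immune markers CD3E and HBB had 0, in both libraries.

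All 8 factors were well counted in both libraries, and they did not differ in one direction. PROX1, ONECUT1, HNF4A and FOXA1 were higher in MAEL KO, by 1.68-fold to 3.12-fold. FOXA2 and HNF4G were lower, at 0.725 and 0.749 times the MAEL WT level. CEBPA and FOXA3 differed by less than the counting error. No factor passed the study's threshold, 2 or -2 on the log2 scale. The plot of normalized read counts and FPKM by library shows these 3 kinds of difference. In bulk RNA, fewer cells expressing a factor and less RNA per cell cannot be told apart.

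**Figure D1:**
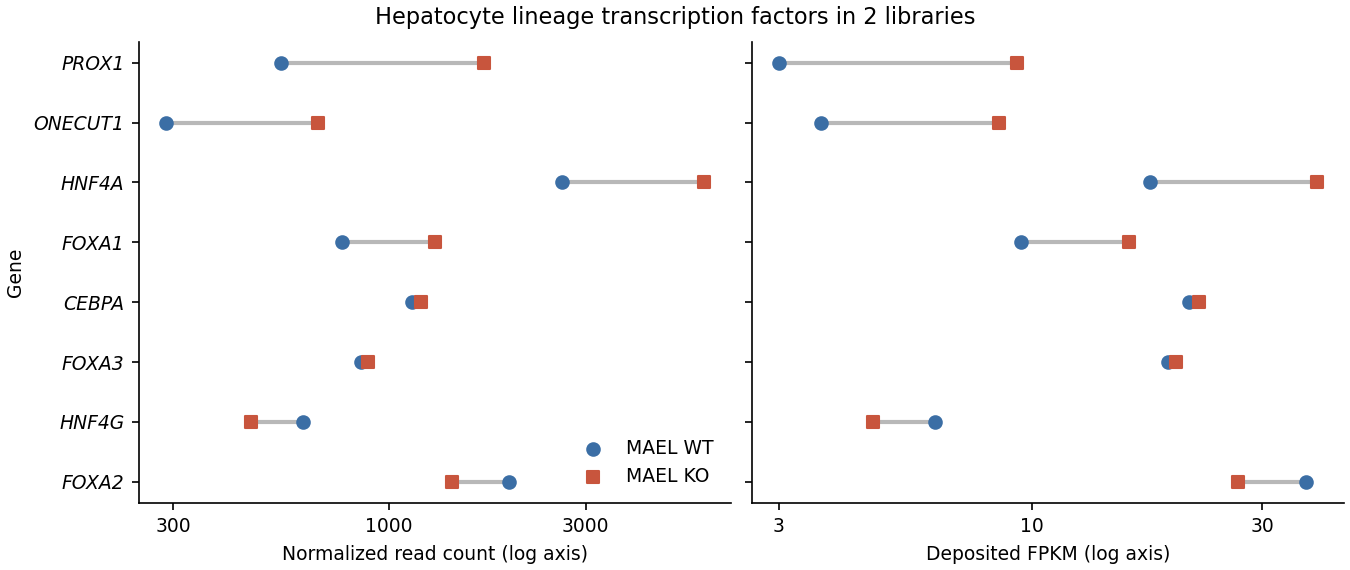
Normalized read count (left) and deposited FPKM (right) of the 8 factors, both on log axes, with MAEL WT as circles, MAEL KO as squares and a line joining the 2 libraries of each gene. PROX1, at 546.2 and 1705.1 normalized read counts, has the widest gap, and the symbols of CEBPA and FOXA3 nearly touch.

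HNF4A (ENSG00000101076, chr20:44355700-44434596 of GRCh38, plus strand) had 2816 counts in MAEL WT and 5391 in MAEL KO. These correspond to 2625.0 and 5814.1 normalized read counts, and the log2 fold change was 1.15 (95% CI 1.08 to 1.21). The HNF4A gene has alternative first exons read from a start known as P2, used in fetal liver, gut and pancreas, and from the P1 start downstream, used in adult hepatocytes. Counts per gene do not tell these starts apart. The bases before both starts are given because ONECUT1 is known to bind the HNF4A gene, and ONECUT1 and HNF4A were both higher in MAEL KO.

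The stretches come from RefSeq promoters on GRCh38.p14, at chr20:44355449-44355698 for the first start and chr20:44400989-44401238 for the second, which lies in an intron of transcripts from the first. Both are on the plus strand and run from 250 bases before the start to the last base before it. Capitals mark matches on either strand to ATTGAT, the letters searched for ONECUT factors.
HNF4A, first start: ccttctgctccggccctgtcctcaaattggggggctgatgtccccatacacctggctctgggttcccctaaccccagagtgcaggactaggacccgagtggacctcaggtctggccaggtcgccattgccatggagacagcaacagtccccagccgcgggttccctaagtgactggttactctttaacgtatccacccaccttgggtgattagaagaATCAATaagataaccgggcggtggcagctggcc
HNF4A, second start: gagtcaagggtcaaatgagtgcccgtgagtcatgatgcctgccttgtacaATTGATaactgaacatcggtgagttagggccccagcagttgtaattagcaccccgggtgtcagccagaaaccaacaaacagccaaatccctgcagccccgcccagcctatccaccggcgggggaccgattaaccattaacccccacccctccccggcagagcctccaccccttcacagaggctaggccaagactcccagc
Each stretch held 1 match. The same letters were found in 5.58% of 35116 RefSeq windows of 250 bases before a start. Neither stretch held the letters searched for HNF4 (CAAAGTC), FOXA (TGTTTAC or TGTTTGC) or CEBP (TTNNGNAAT). A match is a run of letters and not a measured binding site.

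ONECUT1 (ENSG00000169856, chr15:52756989-52791078, minus strand) had 309 counts in MAEL WT and 624 in MAEL KO, or 288.0 and 673.0 normalized read counts. The log2 fold change was 1.22 (95% CI 1.03 to 1.43). PROX1 (ENSG00000117707, chr1:213983181-214041502, plus strand) went from 586 to 1581 counts, or from 546.2 to 1705.1 normalized read counts. Its log2 fold change of 1.64 (95% CI 1.5 to 1.78) was the largest of the 8. PROX1 overlaps an antisense gene, PROX1-AS1, over 5328 bases, and that gene had 101 and 102 counts. Because the strand setting of the counting is not given in the sources used here, reads of such pairs may not be separated.

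The FOXA paralogs differed from each other. FOXA1 (ENSG00000129514, chr14:37589984-37596059, minus strand) had 827 and 1203 counts, or 770.9 normalized read counts in MAEL WT and 1297.4 in MAEL KO, a log2 fold change of 0.75 (95% CI 0.62 to 0.88). FOXA2 (ENSG00000125798, chr20:22581005-22585455, minus strand) had 2099 and 1316 counts, or 1956.6 and 1419.3 normalized read counts, a log2 fold change of -0.46 (95% CI -0.56 to -0.36). FOXA3 (ENSG00000170608, chr19:45863989-45873797, plus strand) had 917 and 827 counts, or 854.8 and 891.9 normalized read counts, a log2 fold change of 0.06 (95% CI -0.08 to 0.20). FOXA1 was thus higher, FOXA2 lower and FOXA3 within counting error in MAEL KO. FOXA2 shares 3257 bases on its own strand with AL121722.1, a gene model with 0 counts in both libraries, and how reads over shared exons were assigned is not given in the sources used here.

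CEBPA (ENSG00000245848, chr19:33299934-33302564, minus strand) had 1220 counts in MAEL WT and 1109 in MAEL KO. These gave 1137.2 and 1196.0 normalized read counts and a log2 fold change of 0.07 (95% CI -0.05 to 0.19), so the libraries could not be told apart for this factor at this depth. CEBPA-DT, a divergent noncoding gene next to it, had 102 and 68 counts, a log2 fold change of -0.37 (95% CI -0.84 to 0.08).

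HNF4G (ENSG00000164749, chr8:75407914-75566843, plus strand), the paralog of HNF4A, which is also active in the intestine, had 663 counts in MAEL WT and 429 in MAEL KO. These gave 618.0 and 462.7 normalized read counts and a log2 fold change of -0.42 (95% CI -0.60 to -0.24). HNF4G was therefore lower in the library in which HNF4A was higher.

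The scaling between the libraries bears on the smallest differences. When libraries were scaled by total counts instead, every well-counted gene shifted by -0.28 on the log2 scale, and the median of all measured genes moved from -0.04 to -0.31. PROX1, ONECUT1, HNF4A and FOXA1 were still higher in MAEL KO, with log2 fold changes of 1.36, 0.95, 0.87 and 0.47. FOXA2 and HNF4G were still lower, at -0.74 and -0.69. CEBPA and FOXA3 changed sign, to -0.20 and -0.21, so no direction is given for them. The plot of log2 fold changes by scaling shows both sets of values.

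**Figure D2:**
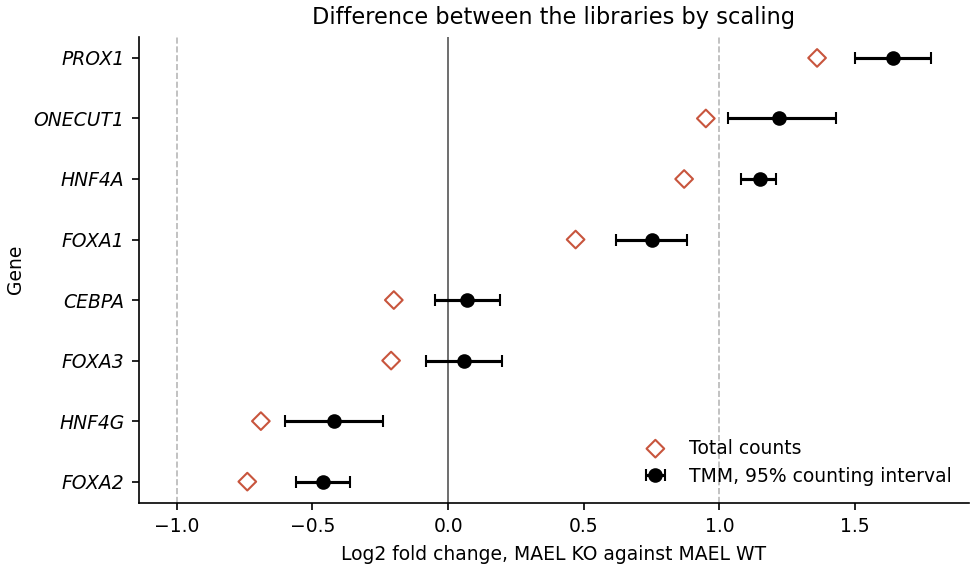
Log2 fold change of each factor, MAEL KO against MAEL WT, with TMM factors (filled circles, bars for the 95% counting interval) and with total counts (open diamonds). The diamonds lie to the left of the circles by the same amount, and the zero line falls between them only for CEBPA (0.07 and -0.20) and FOXA3 (0.06 and -0.21). Dashed lines mark 1 and -1.

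Against the background, 6 of the 8 factors had a log2 fold change above 0, CEBPA and FOXA3 included although their intervals hold 0, compared with 48.0% of all measured genes and 47.7% of 1150 measured transcription factors, as the deposited table annotates them. PROX1, ONECUT1 and HNF4A exceeded 1, compared with 10.2% of all genes and 8.0% of transcription factors, and no factor was below -1, compared with 16.5% and 12.4%. With total counts, 4 of the 8 factors were above 0, compared with 34.6% of all genes and 31.0% of transcription factors. PROX1 alone was then above 1, compared with 6.56% and 4.61%. With TMM factors none was above 2, compared with 2.16% and 1.39%, and none below -2, compared with 5.64% and 4.78%. Of the 92 transcription factors above 1, 27 had a mean under 100 normalized read counts. Of 864 transcription factors with a mean of at least 100 normalized read counts, a split chosen after the values were seen, 65 were above 1. Ordered from the highest log2 fold change, PROX1 stood at position 28 of 1150, ONECUT1 at 57, HNF4A at 67 and FOXA1 at 138, whereas CEBPA was at 493, FOXA3 at 502, HNF4G at 798 and FOXA2 at 822. The median of the 8 factors was 0.41, and that of all measured transcription factors was -0.04. With total counts these medians were 0.14 and -0.32.

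**Figure D3:**
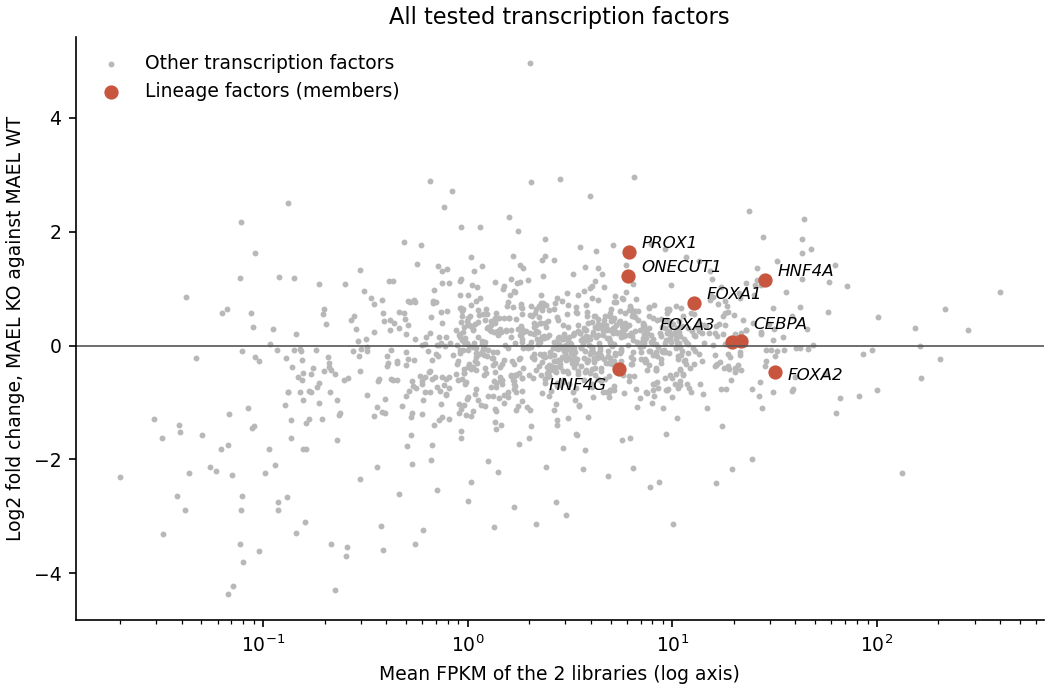
Mean FPKM of the 2 libraries (x axis, log scale) and log2 fold change between MAEL KO and MAEL WT (y axis) for 1150 measured transcription factors, with the 8 lineage factors in red. HNF4A, ONECUT1 and PROX1 lie above 1 and no lineage factor lies beyond 2 or -2.

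Levels of different genes can be compared only per gene length, for which the deposited FPKM was used. In MAEL WT, FOXA2 was the highest of the 8 at 36.87 FPKM, followed by CEBPA (21.2), FOXA3 (19.13), HNF4A (17.61), FOXA1 (9.495), HNF4G (6.307), ONECUT1 (3.669) and PROX1 (3.001). In MAEL KO, HNF4A came first at 38.89 FPKM, followed by FOXA2 (26.67), CEBPA (22.23), FOXA3 (19.9), FOXA1 (15.94), PROX1 (9.341), ONECUT1 (8.549) and HNF4G (4.708). HNF4A thus went from the fourth place to the first, and HNF4G from the sixth to the last. Each gene differed from the next in the order by more than counting error, except PROX1 and ONECUT1 in MAEL KO, whose FPKM ratio was 1.093 (95% CI 0.9953 to 1.201). Among 1553 annotated transcription factors, HNF4A moved from position 97 to 36 by FPKM and FOXA2 from 30 to 62. PROX1 moved from position 551 to 210 and ONECUT1 from 481 to 230.

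Shares within a family do not depend on the scaling between libraries. HNF4A made up 73.63% of the summed FPKM of HNF4A and HNF4G in MAEL WT (95% CI 71.95% to 75.27%) and 89.2% in MAEL KO (88.22% to 90.13%). Among the FOXA factors, FOXA1 went from 14.5% (13.56% to 15.48%) to 25.5% (24.16% to 26.87%), while FOXA2 went from 56.3% (54.72% to 57.87%) to 42.67% (40.96% to 44.38%). FOXA3 held 29.21% and 31.84%, and the sum of the FOXA factors was 65.49 FPKM in MAEL WT and 62.5 FPKM in MAEL KO. In FPKM the FOXA factors together were thus at similar levels, while their make-up differed beyond counting error. Unlike the shares, the comparison of the sums depends on the scaling, and total counts shift well-counted genes by -0.28 on the log2 scale. ONECUT1 held 68.98% of the sum with its paralog ONECUT2 in MAEL WT and 86.12% in MAEL KO.

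CEBPA was at similar FPKM in both libraries, but its share of the family differed. It made up 7.249% (6.86% to 7.654%) of the summed FPKM of CEBPA, CEBPB, CEBPD and CEBPG in MAEL WT and 18.92% (17.92% to 19.96%) in MAEL KO. CEBPB, a paralog that responds to inflammatory signals, had 9375 counts in MAEL WT and 1723 in MAEL KO, a log2 fold change of -2.23 (95% CI -2.31 to -2.16), and its share was 74.93% and 39.55%. CEBPD went the other way, with 700 and 1295 counts, or 1.10 (95% CI 0.96 to 1.23). The share of CEBPD was 5.025% and 26.7%. CEBPG was lower at -1.10 (95% CI -1.19 to -1.01), with shares of 12.79% and 14.83%.

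**Figure D4:**
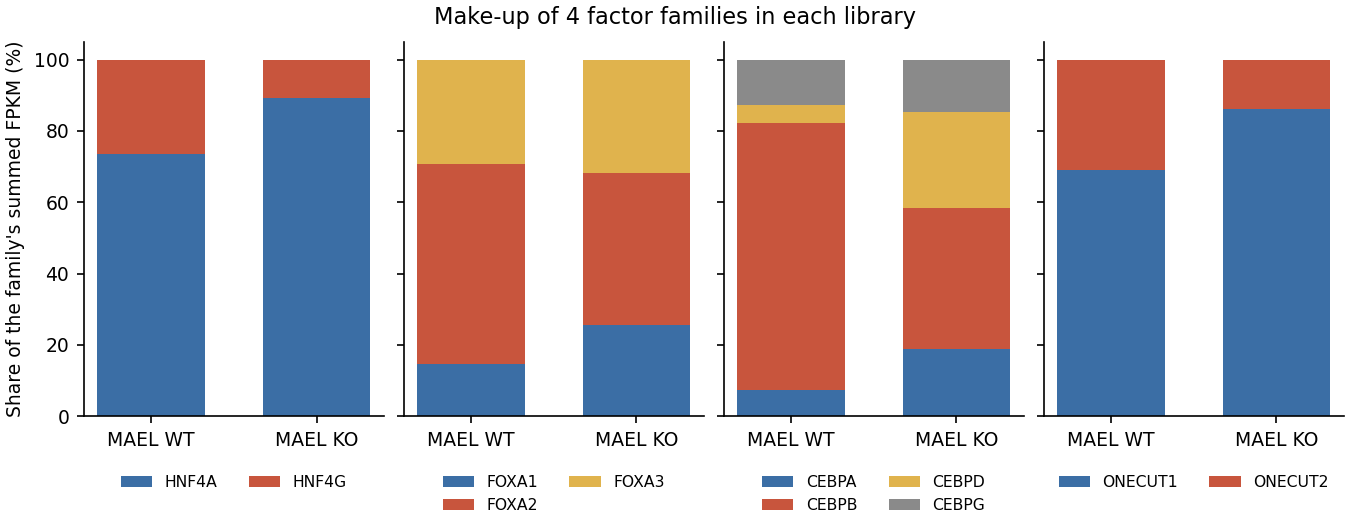
Share of the summed FPKM (y axis, percent) held by each paralog in MAEL WT and MAEL KO, for the HNF4, FOXA, CEBP and ONECUT families. The HNF4A segment spans 73.63% and 89.2%, the FOXA1 segment 14.5% and 25.5%, and the CEBPB segment 74.93% and 39.55%.

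The remaining members of these families were mixed. Over 27 other measured forkhead genes the median was -0.26 on the log2 scale, 11 of them were above 0, and the range was -3.70 to 2.72. The other nuclear receptors of the family of HNF4A had a median of 0.11 over 8 genes. Among them NR2F2 (COUP-TFII), which can compete with HNF4A for its sites, had 1008 and 2439 counts and a log2 fold change of 1.48 (95% CI 1.38 to 1.59). ONECUT2 was at -0.26 (95% CI -0.44 to -0.07), opposite to ONECUT1.

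Other liver transcription factors, 38 measured of 42 listed, had a median of 0.23, with 24 above 0 and 14 below. Above 1 were 10 (26.3%, compared with 8.0% of measured transcription factors), and above 2 were 4 (10.5%, compared with 1.39%). Below -1 were 2, CEBPB (-2.23) and CEBPG (-1.10), and CEBPB alone was below -2. The shares of measured transcription factors below -1 and -2 were 12.4% and 4.78%. NR1H4, the bile acid receptor FXR, had 9 counts in MAEL WT and 270 in MAEL KO, a log2 fold change of 4.96 (95% CI 4.17 to 6.26). HLF, a circadian leucine zipper factor of liver, had 214 and 1445 counts, or 2.96 (95% CI 2.76 to 3.18). HHEX, a homeodomain factor of the early liver bud, had 641 and 2090 counts, or 1.91 (95% CI 1.79 to 2.05). PPARA and TBX3 were both at -0.68. With total counts the median of this list was -0.05, so its direction depends on the scaling.

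The textbook target genes of the factors had higher medians than the factors. For HNF4A, 15 of 16 measured targets were above 0, 10 were above 1 and 6 above 2, with a median of 1.78. The shares of all measured genes above these values were 48.0%, 10.2% and 2.16%. APOA1, the main protein of high density lipoprotein, had 419 counts in MAEL WT and 4400 in MAEL KO, a log2 fold change of 3.60 (95% CI 3.46 to 3.75). MTTP, which loads lipid onto apolipoprotein B, had 101 and 502 counts, or 2.51 (95% CI 2.21 to 2.85). Of HNF4A targets with high counts in MAEL WT, SERPINA1 was at the median of the list with 1.79, and APOA2 (1.17), APOB (0.97), TF (transferrin, 0.36) and AMBP (0.23) were below it. F7, coagulation factor VII, was the target below 0, with 1939 and 1086 counts and a log2 fold change of -0.63 (95% CI -0.73 to -0.52).

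For the FOXA factors, 9 of 10 measured targets were above 0 and 5 above 2, compared with 48.0% and 2.16% of all measured genes. The median of these targets was 2.38, or 1.79 when 100 counts were required in either library. ALB had 59 counts in MAEL WT and 8550 in MAEL KO, a log2 fold change of 7.36 (95% CI 7.02 to 7.78). AFP (alpha-fetoprotein) had 26 and 1351 counts, or 5.85 (95% CI 5.35 to 6.53), in the same direction as ALB. TTR (transthyretin) had 20 and 155 counts, or 3.10 (95% CI 2.49 to 3.92). TAT, the tyrosine aminotransferase in whose enhancer FOXA binding was described early, had 162 and 146 counts and a log2 fold change of 0.06 (95% CI -0.27 to 0.39). IGFBP1, an insulin-repressed gene bound by FOXA and FOXO factors, was lower, with 110325 and 45957 counts and a log2 fold change of -1.05 (95% CI -1.07 to -1.04). The FOXA targets thus ranged from -1.05 to 7.36 on the log2 scale, with both directions among well-counted genes.

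CEBPA, within counting error itself, had 6 of 7 measured targets above 0 and 4 above 2, compared with 48.0% and 2.16% of all measured genes. The 7 targets had a median of 2.98 and ranged from -0.27 to 7.36. When 100 counts were required in either library, the median was 1.94. G6PC, the glucose-releasing phosphatase of gluconeogenesis, had 26 and 1671 counts, or 6.16 (95% CI 5.66 to 6.84). CPS1, the first enzyme of the urea cycle, had 111749 and 80231 counts, or -0.27 (95% CI -0.28 to -0.25).

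The 3 target lists are not independent of each other. They hold 29 genes, of which 9 are on more than 1 list. HNF4A and FOXA share 6 genes, or 31.6% of the HNF4A list and 54.5% of the FOXA list. FOXA and CEBPA share 4 genes, or 36.4% of the FOXA list and 40% of the CEBPA list, and HNF4A and CEBPA share 3. Over the 23 measured targets the median was 1.79, with 20 above 0 and 9 above 2, or 39.1%, compared with 2.16% of all measured genes. The same genes in part are also counted among 54 measured plasma proteins and metabolic enzymes of hepatocytes, for which the median was 1.07 and 27 were above 1, or 50%, compared with 10.2% of all measured genes. FABP1, the liver fatty acid binding protein, had 44 and 2596 counts, or 6.06 (95% CI 5.66 to 6.56). Of these 54 genes 9 were below 0, among them TDO2, a tryptophan-degrading enzyme with 12 counts in MAEL WT and 0 in MAEL KO. Set against 3 counts, TDO2 was 3.46-fold lower in MAEL KO, and the upper 95% limit of its log2 fold change was -1.26. The inter-alpha-trypsin inhibitor chain ITIH2 had 9031 and 4264 counts, or -0.87 (95% CI -0.93 to -0.82), and ITIH3 had 13 and 4. The gap to other genes depended on the level, over splits chosen after the values were seen. For a mean from 100 to 1000 normalized read counts, 12 hepatocyte genes had a median of 2.25 and all measured genes one of -0.03. For a mean of at least 10000, 14 hepatocyte genes had a median of 0.70, 5 of them above 1, and all 218 measured genes had a median of 0.67, 49 of them above 1. None of these values assigns a gene's difference to one factor.

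**Figure D5:**
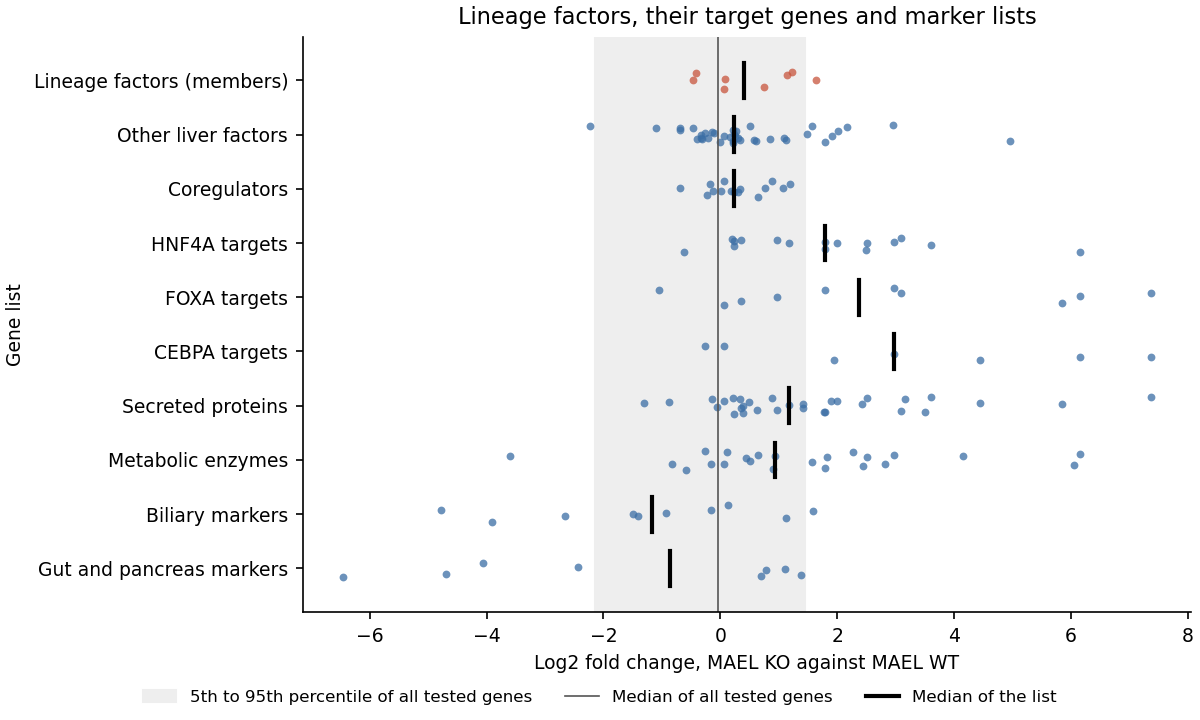
Log2 fold change between MAEL KO and MAEL WT for every measured gene of 10 lists (points, 1 per gene, jittered vertically), with the median of each list (black bar), the median of all measured genes (thin line) and their 5th to 95th percentile (grey band). The medians of the target lists lie between 1.78 and 2.98, to the right of those of the 8 factors (0.41) and of the other liver factors (0.23).

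Hepatocyte genes with little or no RNA in MAEL WT did not all differ. CYP7A1, the rate-limiting enzyme of bile acid synthesis, and the gluconeogenic enzyme FBP1 had 0 counts in both libraries. CYP3A4, the main drug-metabolizing cytochrome of adult liver, had 0 and 2 counts. Of 65 listed plasma proteins and enzymes, 11 did not reach 10 counts in either library, whereas all 8 factors did.

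The bases before the starts of 2 targets with large differences are given because they carry letters searched for the factors. They are RefSeq promoter sequences on GRCh38.p14, all on the plus strand, cut where the first annotated exon base begins: chr4:73404037-73404238 for ALB and chr17:42900549-42900796 for G6PC. Capitals mark TTNNGNAAT (CEBP) in ALB, and in G6PC, from 5′ to 3′, TGTTTGC (FOXA) and ATTGAT (ONECUT, on the minus strand).
ALB: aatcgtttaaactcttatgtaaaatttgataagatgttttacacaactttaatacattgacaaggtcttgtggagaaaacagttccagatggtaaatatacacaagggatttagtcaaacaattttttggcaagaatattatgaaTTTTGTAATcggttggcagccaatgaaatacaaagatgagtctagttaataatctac
G6PC: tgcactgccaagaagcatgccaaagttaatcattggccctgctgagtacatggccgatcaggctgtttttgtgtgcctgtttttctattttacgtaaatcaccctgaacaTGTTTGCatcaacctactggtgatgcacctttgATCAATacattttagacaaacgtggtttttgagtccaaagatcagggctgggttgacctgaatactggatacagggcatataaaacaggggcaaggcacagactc
In all windows before a start, the CEBP letters were found in 9.85% and the FOXA letters in 6.09%. The ALB stretch held none of the letters searched for FOXA, HNF4 or ONECUT, and the G6PC stretch none of those for CEBP or HNF4. The sequences show letters that these factors can read and not that a factor was bound in these cells. Of the 5 lineage factors with a RefSeq promoter entry, FOXA1 had a FOXA match and HNF4A the ONECUT matches shown above.

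The factors were also read beside markers of the other cell types in which they act. Of 10 measured biliary markers 3 were above 0, with a median of -1.16. KRT7, a duct keratin, had 60 counts in MAEL WT and 1 in MAEL KO, a ratio of MAEL WT to MAEL KO of 51.9 (95% CI of the log2 fold change -11.02 to -3.16), and KRT19 had 13 and 1. EPCAM had 15 and 0 counts. Set against 3 counts, EPCAM was 4.32-fold lower in MAEL KO, and the upper 95% limit of its log2 fold change was -1.63. SOX9 had 161 and 73 counts. CD24 went the other way, with 5275 and 13639 counts, and the summed biliary level was 6609 and 16532.0 normalized read counts. Of 8 measured gut and pancreas markers 4 were below -2 and 4 above 0. MUC2, a secreted mucin of goblet cells, had 2631 and 25 counts, while the intestinal regulator CDX2 had 191 and 286 and the pancreatic regulator PDX1 had 47 and 89. The summed gut and pancreas level was 4696 and 2396 normalized read counts. The markers moved beside the factors in the same 2 libraries, and their part in the differences of the factors was not tested.

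Genes next to the factors differed in both directions. Of 36 other genes that overlap a factor or lie within 50 kb of it, 15 were measured, 1 was above 1 (RSPH6A, with 5 and 11 counts) and 1 below -1 (AC092301.1, with 18 and 7), compared with 10.2% and 16.5% of all measured genes. On either side of HNF4A, FITM2 was at -0.48 (95% CI -0.64 to -0.32) and TTPAL at 0.11 (95% CI -0.03 to 0.25). HNF4A-AS1, transcribed from the opposite strand within HNF4A, had 1 and 9 counts, a ratio of 10.4 on few reads (95% CI of the log2 fold change 0.53 to 8.83). FAM214A, next to ONECUT1, was at -0.75 (95% CI -0.97 to -0.55), opposite to ONECUT1, and AC016044.1 at 0.10 (95% CI -0.28 to 0.48). Near FOXA3, MYPOP was lower at -0.84 (95% CI -1.07 to -0.62), while SYMPK was at -0.06 (95% CI -0.13 to 0.01) and IRF2BP1 at -0.11. MIPOL1, near FOXA1, was lower at -0.37 (95% CI -0.64 to -0.12), opposite to FOXA1. The intervals of RPL37AP1 (0.38), PROX1-AS1 (0.22) and AC011700.1 (-0.27) held 0. TTC6, which overlaps FOXA1 by 213 bases on the opposite strand, was at -0.06 (95% CI -0.50 to 0.39).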

How the data were processed

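RNA of PLC8024 cells was sequenced on a HiSeq platform as 1 MAEL WT and 1 MAEL KO library. The authors deposited read counts per gene, whole numbers without normalization, and FPKM values, for which library sizes of 1.099 (MAEL WT) and 0.91 (MAEL KO) times the total counts were used beside gene length. The submitters' processing notes name HISAT2 2.0.5, featureCounts 1.5.0-p3 and hg19, whereas the tables carry GRCh38 coordinates with GENCODE 29 identifiers. The strand setting is not given in the sources used here.

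Total counts were 19904136 and 20833332, at which 3 counts, the floor, are 0.1507 and 0.144 CPM. Without molecular identifiers, reads are not independent molecules, and intervals and floors cover only counting error.

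TMM factors (1.10044 and 0.90873) came from edgeR 4.0.16 and other size factors from DESeq2 1.42.0, in R 4.3.3. All other values came from Python 3.11.15 (pandas 2.3.3, NumPy 2.4.6, SciPy 1.17.1), and matplotlib 3.10.9 drew the plots. With 1 library per condition no p-value was computed. The log2 threshold of 2 is the study's. For a gene at 0 counts in 1 library the fold is set against 3 counts, which leaves out the counting error of the other library. The steps were tested on simulated data. Alternatives were other scalings, FPKM ratios, added counts of 0.1 and 5, other count filters and a threshold of 1.

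Those named are the 8 factors, the targeted gene, measured neighbors of the factors, textbook targets and up to 4 genes at each end of a list, and other listed genes enter counts only. Low or absent hepatocyte genes were named after their values were seen. The factors and lists were chosen with earlier results of these data known. Promoter sequences are RefSeq's, with bases of annotated exons left out.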

Additional observations from a re-analysis of the deposited data

How the results depend on the processing

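No paired analysis was possible because there was 1 library per condition, which also leaves no library to leave out. With total counts the log2 fold changes were 0.87 for HNF4A, -0.69 for HNF4G, 0.47 for FOXA1, -0.74 for FOXA2, 0.95 for ONECUT1 and 1.36 for PROX1, and the sign changed for FOXA3 (-0.21) and CEBPA (-0.20) and for the medians of other liver transcription factors (-0.05) and coregulators (-0.05). The median of all measured genes was -0.31 with total counts, -0.08 without a count filter and 0.07 when 100 counts were required, where that of transcription factors was 0.02 and that of mesenchymal markers 0.31. With no count filter the median of endothelial markers was -0.28. By construction, total counts shift all well-counted genes by the same amount, and filters change the genes tested. At a log2 threshold of 1, 3 factors were higher in MAEL KO in place of 0. The median of transcription factors was -0.32 with total counts, and the counts of all genes past the threshold moved by over 1.5 times with 5 added, other filters or a threshold of 1. The other 174 values kept their direction and stayed within the counting interval of a factor, the order-statistic interval of a list's median or 1.5 times a count. Many of them had little room to differ. FPKM library sizes (1.099 and 0.91 times the totals) were close to the TMM factors, and DESeq2 size factors shifted well-counted genes by -0.00. Orders by FPKM and by counts per length match by construction. Total counts was thus the only scaling that differed much from TMM. Depth limits the calls for CEBPA and FOXA3, whose counting intervals hold 0, and the ratios of genes with few counts, such as HNF4A-AS1.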

Other observations

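Of 15 coregulators and partners of the lineage factors, all measured, 11 were above 0, compared with 48.0% of all genes. On the log2 scale 2 were above 1 (13.3%, near the 10.2% of all genes) and none was below -1. The median was 0.23, or -0.05 with total counts. The list includes PPARG and NR0B2, which the deposited table annotates as transcription factors, and NR0B2 is also counted among the other liver transcription factors. TLE3, a Groucho corepressor that binds FOXA proteins, had 518 counts in MAEL WT and 1025 in MAEL KO, a log2 fold change of 1.19 (95% CI 1.04 to 1.35). TLE1, of the same family, had 2980 and 1587 counts, or -0.70 (95% CI -0.79 to -0.61). PPARGC1A, the coactivator of HNF4A on gluconeogenic genes, had only 6 and 12 counts. The coactivator NCOA3 had 1923 and 3079 counts, or 0.89 (95% CI 0.81 to 0.97).

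Hepatoblast markers were all above 0 among the 7 measured, compared with 48.0% of all measured genes, with a median of 1.02. Not measured were DLK1, with 0 counts in both libraries, and IGF2, with at most 2 counts in either. GPC3, a fetal liver and HCC glypican, had 3196 and 21285 counts, a log2 fold change of 2.95 (95% CI 2.89 to 3.0). SALL4, a fetal liver regulator, was at 1.02 (95% CI 0.84 to 1.21). PROX1 and the measured fetal markers were thus higher in the same library as ALB.

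Lists of cell types outside the endoderm were too sparsely measured to describe beyond a count. Of 8 mesenchymal markers 4 were measured, with a median of -0.76, of 6 endothelial markers 2, with a median of 1.12, and of 7 immune markers 2, with a median of -1.75. ACTA2, CD3E and HBB were at 0 in both libraries.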
